A study of Mus musculus with 12 samples.

Results

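The regions described here are the 2034 peaks of a MACF1 knockdown library, knockdown size3, that overlap by at least 1 bp a peak of a second MACF1 knockdown library, knockdown 1. They make up 11.6% of the 17592 peaks of knockdown size3 and meet 1960 (9.16%) of the 21398 peaks of knockdown 1, in 2040 overlapping pairs. All 6 peak lists of the series together hold 46669 peaks. The members were chosen by the called positions of peaks in both libraries, so width, reads and fold enrichment, which come from the same calls, are given as descriptions. The rule did not read place relative to genes, base composition of promoters or the peaks of the 4 other libraries. Both whole lists leaned to gene ends and CpG-rich promoters, though, where overlaps between them are more likely. Place and composition are therefore not independent of the choice. Below, these members are called shared peaks, and the 15558 other peaks of knockdown size3 and 19438 of knockdown 1 are called remaining peaks.

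The data are chromatin immunoprecipitations with an anti-MACF1 antibody, read out by sequencing, in a mouse cell line named MC3T3-E1 and labelled as osteoblast. The 12 samples form 4 groups of 3: immunoprecipitates and inputs of cells with the genotype Control, and immunoprecipitates and inputs of cells with the genotype MACF1 knockdown, each numbered 1, 2 or size3. How MACF1 was knocked down, whether the knockdown cells are 1 clone, and what size3 stands for are not given in the sources used here. Nothing in the labels says that the 3 libraries of a group came from separate cultures. Peaks of genomic DNA show neither expression nor cell type, so neither the knockdown nor the osteoblast label could be checked with them. Knockdown size3 held 8175173 reads after duplicate removal, with a redundant rate of 0.02, and knockdown 1 held 18454330, with a rate of 0.51. The 4 other immunoprecipitates held 5575205 to 33085606 reads and had 198 to 4513 peaks.

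MACF1 is a very large spectraplakin that binds both actin filaments and microtubules and is best known in the cytoplasm, where it acts in cell migration, polarity and Wnt signalling. It is not a classical DNA-binding protein. In a chromatin immunoprecipitation, DNA is recovered where the antibody's target, or another protein that the antibody binds, sits on or near chromatin, and a peak is a stretch with more reads than the matched input. Promoters of many mammalian genes lie in GC-rich, CpG-rich sequence around the start of transcription, and GC boxes in them are known binding motifs of Sp1-family factors.

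Shared peaks overlapped 446 of 21263 promoter windows of protein-coding genes, which belong to 403 genes. A window is the RefSeq sequence of GRCm38.p6 from 250 bases before to 50 bases after an annotated start site. A shared summit, the point of highest signal in knockdown size3, fell inside 120 windows. The 8 of these that ranked best by fold enrichment, averaged over both lists, belonged to Raver1, Il18r1, Cntln, Lca5, Ube2k, Dpp6, Fbxl2 and Stim2. Printed below, 5′ to 3′ along the gene's strand, are 3 windows with GC boxes, followed by that of Il18r1, which has none. Capitals mark the GC box GGGCGG or its reverse complement CCGCCC.
Raver1: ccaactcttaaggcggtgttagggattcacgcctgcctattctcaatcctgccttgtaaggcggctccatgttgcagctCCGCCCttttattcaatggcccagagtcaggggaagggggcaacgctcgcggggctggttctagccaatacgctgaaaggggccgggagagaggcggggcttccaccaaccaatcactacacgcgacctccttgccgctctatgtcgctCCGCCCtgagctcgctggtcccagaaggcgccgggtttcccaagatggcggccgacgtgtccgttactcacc
Ube2k: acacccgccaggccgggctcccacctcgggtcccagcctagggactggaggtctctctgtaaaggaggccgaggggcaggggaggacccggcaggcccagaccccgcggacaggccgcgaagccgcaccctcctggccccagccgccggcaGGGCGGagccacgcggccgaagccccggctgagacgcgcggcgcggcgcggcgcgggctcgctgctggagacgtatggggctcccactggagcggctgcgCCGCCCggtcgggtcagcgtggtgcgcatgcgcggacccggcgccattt
Stim2: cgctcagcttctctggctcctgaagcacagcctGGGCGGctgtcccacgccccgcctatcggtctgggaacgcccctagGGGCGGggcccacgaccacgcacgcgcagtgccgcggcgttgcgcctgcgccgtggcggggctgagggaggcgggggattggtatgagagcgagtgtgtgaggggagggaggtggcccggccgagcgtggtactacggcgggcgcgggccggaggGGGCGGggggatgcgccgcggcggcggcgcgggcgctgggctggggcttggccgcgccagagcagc
Il18r1: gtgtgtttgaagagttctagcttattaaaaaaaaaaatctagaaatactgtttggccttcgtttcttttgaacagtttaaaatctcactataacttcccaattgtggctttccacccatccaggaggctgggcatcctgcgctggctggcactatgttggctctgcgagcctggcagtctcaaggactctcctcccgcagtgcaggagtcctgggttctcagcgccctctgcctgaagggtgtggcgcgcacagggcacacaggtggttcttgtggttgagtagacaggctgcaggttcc

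Raver1 encodes an RNA-binding protein, and its window (chr9:21091950-21092249, minus strand, GRCm38.p6) held 2 GC boxes, 22 CpG dinucleotides and 61.0% G and C. Its shared peak was 546 bp wide, with 12 reads in knockdown size3 and 32 in knockdown 1, and its summit lay 112 bp upstream of the start site. The window of Ube2k, a ubiquitin-conjugating enzyme gene (chr5:65536995-65537294, plus strand), was 76.7% G and C, with 39 CpG and 2 GC boxes. There the shared peak had 24 reads in knockdown size3 and 134 in knockdown 1. Stim2 encodes a calcium sensor of the endoplasmic reticulum, and its window (chr5:53998273-53998572, plus strand) also held 39 CpG, with 3 GC boxes. In contrast, the window of Il18r1, a subunit gene of the interleukin-18 receptor (chr1:40465371-40465670, plus strand), held 7 CpG and 51.3% G and C. Its summit lay 12 bp downstream of the start site, in a peak of 23 reads in knockdown size3 and 37 in knockdown 1. The windows of Cntln, Lca5, Dpp6 and Fbxl2 ranged from 63.3% to 66.7% G and C and each held 1 or 2 GC boxes.

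MicroRNA genes were a second class of short elements for which reference sequence was at hand. Shared peaks overlapped 9 of 1005 microRNA hairpins (0.896%), with 7 peaks: Mir5103, Mirlet7i, Mir12181, Mir6927 and Mir1904 alone, and the pairs Mir212 with Mir132 and Mirlet7e with Mir125a under 1 peak each. MicroRNAs bind their target RNAs mainly through the seed, bases 2 to 8 of the mature strand, shown in capitals. The 4 strands printed here are those that share a seed with another microRNA of the set.
mmu-let-7i-5p: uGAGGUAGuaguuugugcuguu
mmu-let-7e-5p: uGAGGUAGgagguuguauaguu
mmu-miR-212-3p: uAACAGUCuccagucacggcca
mmu-miR-132-3p: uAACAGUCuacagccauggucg

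The strands of let-7i and let-7e share the seed GAGGUAG, that of the large let-7 family, whose hairpins lie here on chromosomes 10 and 17. The strands of miR-212 and miR-132 share the seed AACAGUC, and their hairpins, at chr11:75173388-75173478 and chr11:75173682-75173747, lie next to each other on the plus strand. The shared peak over both, chr11:75172791-75174187, had 43 reads in knockdown size3 and 153 in knockdown 1. The peak over Mirlet7i (chr10:122985195-122986897) had 45 and 200 reads, and that over Mirlet7e and Mir125a (chr17:17830038-17831171) had 27 and 74. None of these 7 peaks was met by a peak of a control library or of knockdown 2, and of all 2034 shared peaks 17 (0.836%) were. Taken singly, those libraries met 0.0114% to 0.409% of all knockdown size3 peaks, so such overlaps were rare in the whole list. Any peak of knockdown size3 overlapped 37 hairpins, any peak of knockdown 1 overlapped 100, and any control peak 2.

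The shared peaks mostly lay within broader peaks of knockdown 1. Of the 2034, 1388 (68.2%) lay wholly inside the knockdown 1 peak, 39 (1.92%) wholly around it, and 607 (29.8%) overlapped it in part. The knockdown 1 peak was the wider of the pair for 1898 (93.3%), with a median width ratio of 1.97. The median overlap was 783 bp, and for 1973 (97.0%) it covered at least 50% of the shorter peak. Summits coincided less closely than the peaks did: the median distance between them was 300 bp (interquartile range 86.0 to 835 bp), and 866 pairs (42.6%) had summits within 200 bp. Of the knockdown 1 peaks, 76 each met 2 or more shared peaks, so some shared peaks divide 1 stretch that was called whole in knockdown 1.

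The rule's limit of 1 bp decided few members. The smallest overlaps were 10, 20, 23, 27 and 28 bp, and 18 members overlapped by under 100 bp. Just outside, the nearest remaining peaks of knockdown size3 lay 13, 13, 14, 15 and 16 bp from a knockdown 1 peak. The 5 members just inside had 13 to 35 reads and the 5 peaks just outside had 13 to 41 reads in knockdown size3, so both sides span a like range. Within 1000 bp of a knockdown 1 peak lay 553 remaining peaks.

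Shared peaks were wider and held more reads than the remaining peaks of both lists. These are values from the contrast that chose them, and a wide peak has more sequence in which to meet another. In knockdown size3 the median width was 830 bp (interquartile range 637 to 1167) for shared and 632 bp for remaining peaks. Reads per peak had a median of 23.0 (16.0 to 33.0) against 16.0. In knockdown 1 the shared peaks had a median width of 1762 bp against 945 bp and a median of 112 reads against 43.0. Fold enrichment, the authors' own value for each peak relative to input, ran the other way within each list: 7.09 against 8.27 in knockdown size3 and 4.01 against 5.09 in knockdown 1. Read density differed little in knockdown size3, with medians of 3.32 for shared and 3.24 for remaining peaks in reads per kb of peak for each 1000000 reads kept, while in knockdown 1 the medians were 3.10 and 2.46. Reads and width were closely tied across shared peaks (Spearman's rho 0.92 in knockdown size3, 2034 peaks of 1 library). The caller's false discovery rate was at most 5% for 60.0% of shared peaks, beside 57.8% of all knockdown size3 peaks, and 1175 members met it in both lists. In knockdown 1 it was at most 5% for 95.9% of shared and 99.2% of remaining peaks.

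Across the 2034 shared peaks, reads in knockdown size3 and knockdown 1 had a Spearman's rho of 0.67, width one of 0.60 and fold enrichment one of 0.42. Each point is 1 place in the genome called in 2 libraries, each against its own input, and the values are a description. Peaks more than 50 kb from genes lay lowest on both axes, with medians of 16.0 reads in knockdown size3 and 37.0 in knockdown 1, against 25.0 and 145 at gene ends. Coordinates below are those of the peak calls, on GRCm38.

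**Figure D1:**
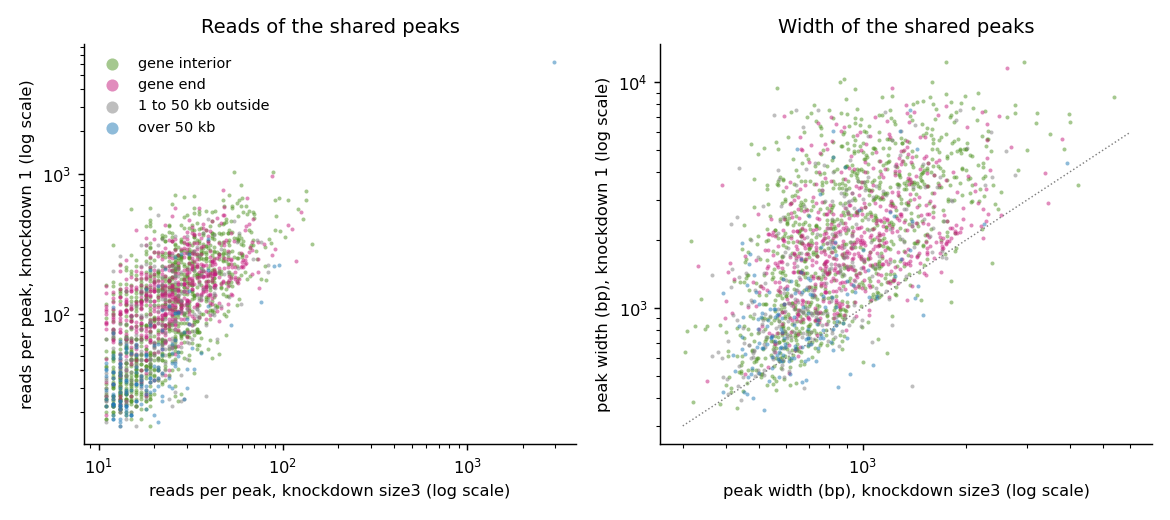
Reads per peak (left) and peak width in bp (right) of each shared peak in knockdown size3 (x) against its knockdown 1 peak (y), both axes on a log scale, coloured by the place of the summit, where "over 50 kb" means that far from any protein-coding gene; the dotted line marks equal width. Most points lie above the line of equal width (93.3% of shared peaks are wider in knockdown 1), and 1 peak with 2956 and 6218 reads stands apart.

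The peak that stands apart lies at chr17:39842920-39846852, 104759 bp from Esp38, the nearest protein-coding gene, in a stretch known to hold ribosomal repeat sequence. It had 2956 reads in knockdown size3 and 6218 in knockdown 1 at fold enrichments of only 2.12 and 1.52, and its false discovery rate in knockdown size3 was 100%. The next peak by reads in knockdown size3 had 144. That peak lies inside Flnc, the gene of the actin crosslinker filamin C, is 4234 bp wide and had 316 reads in knockdown 1. Peaks inside Ncln (134 and 757 reads), Rai1 (133 and 653) and Lrp1 (129 and 474), an endocytic receptor gene that also acts in signalling, followed. Rai1 held the widest shared peak, at 5373 bp, inside a knockdown 1 peak of 8585 bp. Mroh2a, Sh3pxd2a, Prrt4, Ppp2r5b and Capn15 completed the 10 with most reads, with 106 to 125. Ttc7 and Adra2a, an adrenergic receptor gene, joined 8 of these peaks among the 10 widest, at 3507 and 3404 bp. Of these 10, all except the one near Esp38 lay in or at genes, and 13 shared peaks were wider than 3000 bp.

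Ranking by fold enrichment gave other peaks, short and with few reads. The best mean rank over both lists fell to a peak 517707 bp from Rfpl4b (chr10:38302651-38303075), 425 bp wide, with 13 reads and a fold enrichment of 13.86 in knockdown size3 and with 22 reads and 8.74 in knockdown 1. Second was a peak inside Mdm2, the ubiquitin ligase gene that limits p53, 6199 bp downstream of its start site, with 20 and 27 reads. Peaks inside Asic2, Plcl2, Cadps and Dpyd, and peaks outside genes nearest to Fam135b, Kcnmb2 and Ybx3, also ranked among the first 10 and had 12 to 20 reads in knockdown size3 and 24 to 57 in knockdown 1. None of the 10 lay within 1 kb of a gene end.

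Shared peaks lay at gene ends, and above all at start sites, more often than the remaining peaks did. Summits at a protein-coding gene's ends, within 1 kb of one, made up 601 of 2033 shared peaks on placed chromosomes, or 29.6% (95% Wilson interval 27.6 to 31.6), against 10.8% of the remaining peaks of knockdown size3. The difference was 18.8 points (95% Newcombe interval 16.8 to 20.9). Measured with knockdown 1 summits it was 29.0% against 14.4%, a difference of 14.6 points (12.6 to 16.7). In control size3, the control library with most peaks, the share was 5.51%. The caller's false discovery rate for those control peaks was 48.8% to 100%, with a median of 85.3%. These intervals cover counting error only, since the peaks of a list come from 1 library and are not replicates. The remaining peaks of both lists also lay at gene ends more often than those of control size3. How much of the excess follows from this lean of both lists was not tested.

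Start sites carried most of this difference. On chromosomes with annotated start sites, 458 of 1985 shared summits (23.1%, Wilson interval 21.3 to 25.0) lay within 1 kb of one, against 7.48% of remaining peaks, a difference of 15.6 points (Newcombe interval 13.7 to 17.5). Peaks at genes without an annotated start site stayed in the totals, and starts of such genes were not counted. Within 1 kb of a gene's 3′ end lay 98 summits (4.94%) against 2.77%, a difference of 2.16 points (1.25 to 3.24). Control size3 had 3.18% at start sites and 1.89% at 3′ ends. The share deep inside genes, more than 1 kb from either end, did not separate the sets: it was 48.9% for shared and 50.1% for remaining peaks, with a difference of -1.21 points (-3.51 to 1.10). Intergenic places were correspondingly less filled. Shared peaks outside genes at 1 to 50 kb from an end made up 13.9% against 22.8%, and those more than 50 kb from any protein-coding gene 7.62% (155 peaks) against 16.3%. In all, 71.8% of shared and 58.1% of remaining summits lay inside a protein-coding gene. Whether they fell in exons, introns or UTRs was not analysed here, since the annotation used gives no exons.

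**Figure D2:**
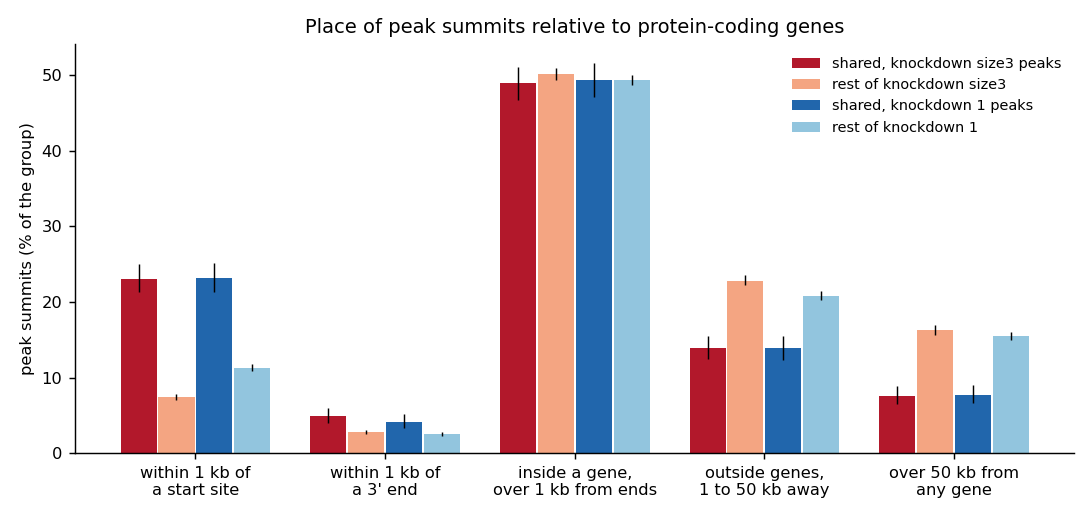
Share of peak summits (% of each group, bars with 95% Wilson intervals) in 5 places relative to protein-coding genes, for shared and remaining peaks of knockdown size3 (reds) and of knockdown 1 (blues). Shared peaks stand at 23.1% near start sites against 7.48% for the remaining peaks of knockdown size3, while the shares deep inside genes lie at 48.9% and 50.1%.

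Seen from the genome, 26.4% of all knockdown size3 peaks at gene ends were shared, 11.3% of those deeper inside genes, 7.39% of those 1 to 50 kb outside and 5.76% of those farther away. Width moved with this order. Shared peaks at gene ends had a median width of 909 bp and 25.0 reads, those deep inside genes 864 bp and 24.0 reads, those 1 to 50 kb outside 730 bp and 21.0 reads, and those beyond 50 kb 638 bp and 16.0 reads. Median fold enrichment was lowest at gene ends and inside genes, at 6.93 to 6.97, and highest beyond 50 kb, at 8.43. Within each quartile of knockdown size3 width, the share at gene ends was higher for shared than for remaining peaks. It was 11.8% against 4.56% among the narrowest (263 to 527 bp), then 23.1% against 6.90% and 31.3% against 12.3%. Among the widest (886 to 6069 bp) it was 34.9% against 21.1%. The difference averaged over the quartiles, weighted by their numbers of shared peaks, was 15.0 points. The percentage of knockdown size3 peaks that were shared rose over the same quartiles from 4.60% to 20.6%. Widths in knockdown 1 were not matched, and the part of width in the difference was not tested.

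Around start sites the shared summits leaned into the gene. Of the 458 within 1 kb, 315 (68.8%, Wilson interval 64.4 to 72.9) lay downstream of the start site, with a median position of 162 bp into the gene (interquartile range -93.5 to 442). The remaining peaks leaned the same way, with 67.4% downstream and a median of 134 bp, so the direction was common to the whole library. Within 250 bp of the start site lay 42.6% of the shared and 50.5% of the remaining summits at starts. Start sites on both strands within 1 kb of the summit, as at divergent promoters, were found for 36 of the 458 (7.86%) and for 7.39% of the remaining peaks.

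**Figure D3:**
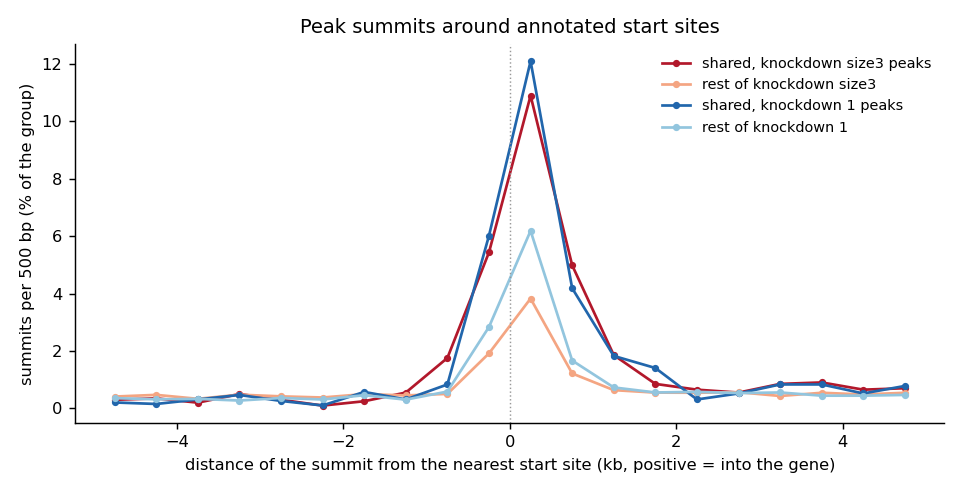
Summits per 500 bp (% of each group) by distance from the nearest annotated start site in kb, positive into the gene, for shared and remaining peaks of both libraries. The shared peaks of knockdown size3 reach 10.9% in the first 500 bp of the gene and 5.44% in the 500 bp before it, and fall below 1% beyond 1.5 kb on either side.

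Promoter windows that shared peaks touched were rich in G, C and CpG, with those of chromosome 18 not analysed here. The median was 65.7% G and C in the 446 windows, against 56.3% in all 21263, 62.0% in the 1160 touched only by remaining peaks of knockdown size3 and 54.3% in the 16907 touched by neither list. A window was called CpG-rich at 55% G and C or more with an observed to expected CpG ratio of at least 0.6. CpG-rich windows made up 74.0% of those touched by a shared peak (Wilson interval 69.7 to 77.8), 64.2% of those touched only by remaining peaks of knockdown size3 (61.4 to 66.9), 64.4% of those touched only by remaining peaks of knockdown 1 and 41.0% of all. Conversely, shared peaks touched 3.79% of CpG-rich and 0.924% of other windows. All peaks of both lists leaned to such windows, and the shared ones did so somewhat more.

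Motifs were searched in the windows on both strands. The GC box GGGCGG was in 74.9% of the 446 windows and in 46.2% of all windows of the same length, and the TATA box TATAAA in 4.93% and 12.6%. The TCF/LEF motif CTTTGA, through which beta-catenin's partner factors bind DNA, was in 7.62% and 14.4%, and the Runx motif TGTGGT, bound by the osteoblast factor Runx2 and its relatives, in 9.64% and 15.0%. For CAGCTG, an E-box of class 1 helix-loop-helix factors, the shares were 13.5% and 15.6%. For the E2F motif TTCCCGCC they were 4.48% and 2.85%, with 4.48% also in windows touched only by remaining peaks of knockdown size3. Those windows held the GC box, TATA box, TCF/LEF and Runx motifs in 64.7%, 7.24%, 10.9% and 11.8%. In windows touched only by remaining peaks of knockdown 1 the shares were 67.5%, 5.56%, 8.73% and 10.1%. Most of the distance from all windows for these 4 motifs was thus common to both whole lists. A match is a description of the letters in a window, and the part of base composition in these shares was not tested.

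Of 21887 protein-coding genes, 1802 (8.23%) held a shared peak in the body or within 5 kb, and 1658 of the shared peaks (81.5%) were held by at least 1 gene. Most of these genes, 1578, held 1 shared peak, 194 held 2, and 30 held 3 or more. Long genes held one more often: 3.89% of genes in the shortest quartile of length, 6.80%, 7.91%, and 14.3% in the longest. Holders had a median length of 32.7 kb and other genes 16.2 kb. A gene could have peaks in both libraries without a shared one. Peaks of both lists were found at 5132 genes, and at 35.1% of those at least 1 pair overlapped.

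Gse1 held the most, 5 shared peaks spread from chr8:120390512 to 120564135 inside a gene of 353 kb, with 28, 20, 21, 18 and 30 reads in knockdown size3 and 256, 95, 127, 424 and 211 in knockdown 1. All 5 lay more than 1 kb from the ends of the gene. Genes with 4 shared peaks were Rbfox3, which encodes the neuronal splicing factor NeuN, Rap1gap2, a Rap1 GTPase activator gene, Adcy1, an adenylyl cyclase gene, and the neighbours Gigyf1 and Gnb2, which hold the same 4 peaks. Those of Gigyf1 and Gnb2 had 53, 48, 23 and 24 reads in knockdown size3, and they lay in pairs on knockdown 1 peaks of 588 and 431 reads. Sh3pxd2a, a gene for a scaffold of cell adhesion structures, held 3 peaks of 121, 56 and 80 reads in knockdown size3 and 557, 221 and 299 in knockdown 1. Ddr1, a collagen receptor gene, held 3 inside its 23.2 kb, with 66, 35 and 37 reads. At Tmem259 and Lzts2, genes of only 7.21 and 11.9 kb, all 3 peaks lay within 1 kb of a gene end, their own or a neighbour's. Myrf, Prex1, Sart3, Dlgap4 and Agpat4 completed the 15 genes named, with 3 shared peaks each.

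MACF1 is known to act in the Wnt pathway, whose genes were listed by role. Among ligands and receptors, 9 of 41 (22.0%) held a shared peak, beside 8.23% of all genes, at a median gene length of 31.0 kb. Both whole lists were frequent at these genes: 26 of the 41 held any knockdown size3 peak and 33 any knockdown 1 peak. Over all 21887 genes those counts were 7759 and 9564. Wnt8b held a peak 3217 bp into the gene with 15 reads in knockdown size3 and 32 in knockdown 1, and Lgr6, a receptor gene for R-spondins, one with 23 and 137 reads. Wnt7a (20 and 151 reads), Wnt1 (25 and 379) and Wnt3 (54 and 348) each held one inside the gene, and Wnt16, Wnt9a, Wnt4 and Wnt5b completed the 9. That in Wnt5b lay 329 bp downstream of the start site of Fbxl14, a gene that overlaps Wnt5b there. Among signal transducers 4 of 33 held one (12.1%, Wilson interval 4.82 to 27.3), and the interval takes in the 8.23% of all genes. Ctnnb1, which encodes beta-catenin, had a summit 164 bp upstream of its start site, with 19 and 87 reads. Tcf7l2, the gene of a transcription factor that beta-catenin joins, held one deep inside with 39 and 56 reads. The peaks counted for Apc2 and Axin1 lay outside those genes, and the nearest start sites were those of Rps15, at 329 bp, and Mrpl28. Wnt antagonists held 2 of 21 (9.52%), near the background, Dact3 and Sfrp1, whose peak lay 476 bp inside the gene end with 20 and 147 reads.

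Osteoblast genes held 5 of 33 (15.2%). The peak inside Runx2, the master transcription factor gene of the lineage, lay 37758 bp from the nearest end of Runx2 but 127 bp upstream of the start site of another gene, Supt3. It had 15 reads in knockdown size3 and 90 in knockdown 1. Cdh2, which encodes N-cadherin, had a summit 127 bp outside one end of the gene with 11 and 19 reads, and Zfp521 one 324 bp inside with 11 and 48. Sp7, the gene of the osteoblast factor osterix, and Fgfr1 were counted for peaks 3796 and 4130 bp outside the gene. BMP and TGF-beta genes held 3 of 38 (7.89%), close to the background: the receptor genes Acvr1, 163 bp into the gene, and Bmpr1b, 104 bp inside a gene end, and the ligand gene Tgfb1.

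Cytoskeletal crosslinkers and microtubule plus-end genes, the family and functional neighbours of MACF1, held 12 of 41 (29.3%, Wilson interval 17.6 to 44.5), with a median gene length of 71.3 kb, within the longest quartile. Here too both whole lists were frequent, with any knockdown size3 peak at 27 of the 41 and any knockdown 1 peak at 32. Dst, the closest relative of Macf1, held one 180184 bp from its nearest end, with 26 reads in knockdown size3 and 31 in knockdown 1. Clip1, a plus-end protein gene, had a summit 232 bp downstream of an annotated start site, with 39 and 192 reads. That of Clasp2 lay 15 bp downstream of an annotated start site but 1411 bp from the nearest gene end, with 22 and 62. Map1a had a summit 223 bp downstream of an annotated start site, with 16 and 88 reads. The spectrin gene Sptbn1 held 2 shared peaks, the better ranked with 27 and 165 reads. Starts and deep positions both occur in this list. Evpl, Plec and Eppk1 were counted for summits 4555, 1425 and 747 bp outside the gene. Macf1 itself held no shared peak, with 1 peak in each of the knockdown 1 and knockdown size3 lists that did not overlap.

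The other lists ranged from 0 to 25.0% of their genes, beside the 8.23% of all genes. E2F, class 1 helix-loop-helix and Polycomb genes held 4 of 25 (16.0%, Wilson interval 6.40 to 34.7): Pcgf6, Rnf2, which encodes a catalytic Polycomb subunit and had a summit 606 bp into the gene, E2f5 and L3mbtl2. Cell cycle genes held 3 of 31 (9.68%), near the background, Mdm2 and the inhibitor genes Cdkn2c and Cdkn1c. None of 25 housekeeping genes, with a median length of 5.48 kb, held one (Wilson upper bound 13.3%). Among markers of other cell types, 5 of 20 adipocyte genes held one (25.0%, Wilson interval 11.2 to 46.9): Prdm16, Zfp423, Cebpd, Slc2a4 and Cebpb. For neurons it was 7 of 30 (23.3%, 11.8 to 40.9), with a median length of 93.7 kb, for muscle 2 of 25 (8.00%), Ttn and Ckm, and for chondrocytes 0 of 18 (Wilson upper bound 17.6%). The shares for adipocyte and neuron genes were thus above the 15.2% of the osteoblast list, with intervals that overlap its own of 6.65 to 30.9. The neuron genes Cadps, Syt1, Grin2a, Gad1 and Nefl had 14 to 27 reads in knockdown size3. The summits counted for L3mbtl2, Cdkn2c, Cdkn1c, Cebpd, Slc2a4, Ttn and Ckm lay outside those genes. For Ttn and Ckm they lay 1874 and 4669 bp away. A peak at a gene is not a measure of its expression, so these counts do not show those cells.

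Gene families, grouped by symbol, spanned a wide range. Glutamate and GABA receptor genes, long genes with a median of 183 kb, held 15 of 45 (33.3%), among them Grin2a with 14 reads in knockdown size3 and 29 in knockdown 1 and Grm4 with 50 and 226. Any knockdown size3 peak was found at 28 of the 45 and any knockdown 1 peak at 32. Hox genes, short and closely packed, held 9 of 39 through only 5 peaks. One of these, at chr2:74681926-74682562, had its summit 46 bp downstream of a Hoxd11 start site, inside the gene and 2811 bp from its nearest end. It counted also for Hoxd10 and Hoxd12, with 20 reads in knockdown size3 and 83 in knockdown 1. Single-exon developmental regulators occurred, such as Sox2, with 2 shared peaks, and Sox11, with a summit 958 bp into the gene and 32 and 176 reads. The 19 of 69 protocadherin genes rested on 2 peaks in nested gene spans. At the other end, 3 of 1110 olfactory receptor genes (0.270%), 0 of 353 vomeronasal receptor genes and 0 of 98 cytochrome P450 genes held one. Zinc finger genes named Zfp (31 of 394, 7.87%), solute carriers (27 of 346, 7.80%) and keratins (4 of 53, 7.55%) stood near the background.

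**Figure D4:**
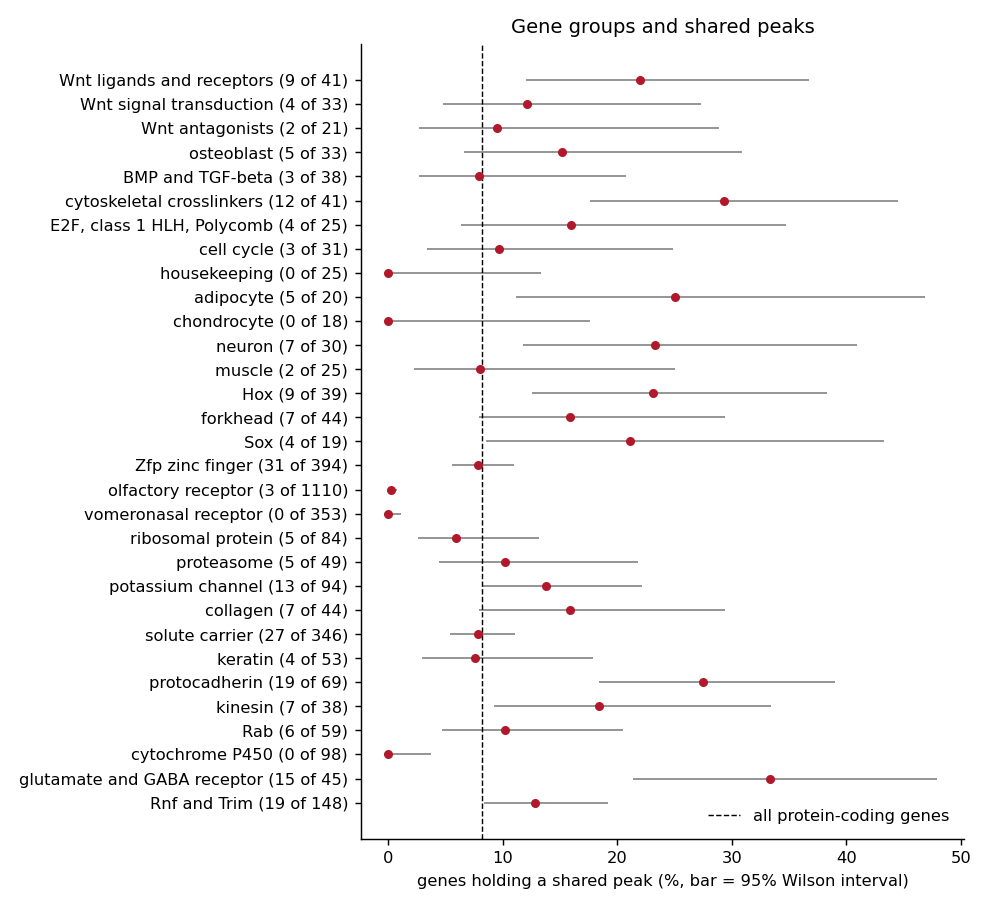
Percent of genes that hold a shared peak in the body or within 5 kb, for 13 lists and 18 families (points with 95% Wilson intervals, gene counts beside the names); the dashed line marks the 8.23% of all protein-coding genes. Glutamate and GABA receptor genes (33.3%) and cytoskeletal crosslinkers (29.3%) lie highest, and olfactory and vomeronasal receptor genes lie at or near 0.

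Shared peaks also lay near each other. Chains of shared peaks with gaps of at most 50 kb, called clusters here, took in 591 members (29.1%) in 266 clusters, of which 218 had 2 members, 41 had 3, 6 had 4 and 1 had 8. This share depends on what counts as shared: it was 8.20% with overlaps of at least 50% of both peaks, 10.9% with summits within 500 bp, 17.3% at a false discovery rate of at most 5% in both lists and 0.0% at a score of at least 100 in both. In 60 of the clusters all peaks, 124 in sum, lay on 1 knockdown 1 peak. The other 206 clusters, with 467 shared peaks (23.0%), spanned at least 2 knockdown 1 peaks. Clusters had a median span of 20.9 kb. Members of clusters made up 33.5% of shared peaks deep inside genes, 26.6% of those at gene ends and 7.10% of those more than 50 kb from genes. Peaks of knockdown size3 are dense in the same places: 74.9% of shared and 69.6% of remaining peaks had another peak of that library within 50 kb, and 2.05 and 1.47 gene centres on average lay that near.

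The largest cluster, at chr10:79578237-79783036, held 8 shared peaks over 205 kb, among 17 peaks of knockdown size3 and 12 of knockdown 1. From its start they lay in or beside Theg, with 23, 47 and 13 reads in knockdown size3, then in Shc2 (36), Tpgs1 (39), Hcn2 (42), Fgf22 (42) and Fstl3 (62). Hcn2 encodes a pacemaker channel, Fgf22 a fibroblast growth factor and Fstl3 a secreted inhibitor of activin and myostatin. In knockdown 1 the peaks had 261 to 408 reads, and the first 2 lay on 1 knockdown 1 peak. Only those at Tpgs1 and Fstl3 had summits within 1 kb of a gene end. Of the 7 other clusters named, 6 had 4 shared peaks and 1, at Pigq and Capn15, had the most reads in knockdown size3 among the 41 with 3. Of these, 2 lay on the same chromosome as the largest, at Tmem259, Cnn2 and Abca7 and at Tbxa2r, Mfsd12 and Smim24, with 4 shared peaks each. The rest lay at Gigyf1 and Gnb2 and at Tmub1, Agap3 and Asb10 on chromosome 5, at Ndufa11 and Nrtn and at Pigq and Capn15 on chromosome 17, and at Adcy1 and Igfbp3 on chromosome 11. Fold enrichments in these 8 clusters ran from 3.15 to 9.45 in knockdown size3.

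**Figure D5:**
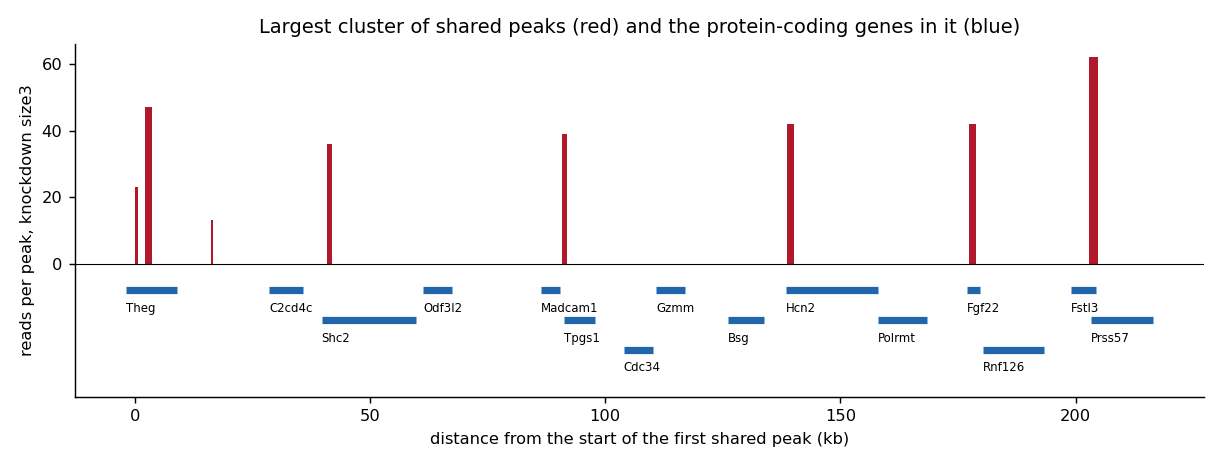
The cluster of 8 shared peaks on chromosome 10, drawn by distance in kb from the start of its first peak: red bars show each peak's width and its reads in knockdown size3, and blue bars the spans of 15 protein-coding genes. Reads range from 13 to 62, with the highest peak at the Fstl3 end.

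Per 100 protein-coding genes, shared peaks were most frequent on chromosome 10 (15.0), then 15 (14.0), 5 (13.9) and 11 (13.4), and least on chromosomes 9 (4.66), 13 (2.65) and X (0.828), with 0 on Y. The remaining peaks of knockdown size3 were also few on chromosomes 9, 13 and X, at 36.8, 25.6 and 7.76 per 100 genes against 112 on chromosome 10. Chromosome 13 held 22 shared peaks at 829 genes and X 8 at 966. The share of a chromosome's knockdown size3 peaks that were shared varied less, from 8.59% on chromosome 14 to 14.4% on chromosome 11.

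The shared peaks, like the remaining peaks of knockdown size3, recurred hardly at all in the 4 libraries outside the rule. Peaks of control 1 and control 2 overlapped 0 of the 2034, beside 0.0171% and 0.0114% of all knockdown size3 peaks. A count of 0 allows a share of up to 0.147%, taken as 3 counts of the total, and its Wilson upper bound is 0.189%. Control size3 overlapped 12 (0.590%, Wilson interval 0.338 to 1.03), beside 0.409% of all knockdown size3 peaks, and knockdown 2 overlapped 5 (0.246%, 0.105 to 0.574), beside 0.136%. Together 17 shared peaks (0.836%) met a peak of any of the 4 and 2017 met none. These lists are shorter, with 772, 198, 2196 and 4513 peaks in control 1, 2 and size3 and knockdown 2. Knockdown 2 also kept the fewest reads of all immunoprecipitates, 5575205, with a redundant rate of 0.65. A peak below the caller's cutoff in a library is not listed in it. Those met by control size3 had 12 to 86 reads in knockdown size3 and lay in or at Dip2a, Stc2, N4bp3, Mtcl1, Pcgf6, Map1a, Aar2, Vtcn1, Csmd2, Fbxw8, Ap5z1 and Nptx2. At Mtcl1, a microtubule crosslinking factor gene, the 3 libraries had 86, 320 and 23 reads in knockdown size3, knockdown 1 and control size3. At Nptx2 they had 74, 153 and 25. The false discovery rate of the control size3 peaks was 58.47% to 90.6%. Those met by knockdown 2 lay nearest to Zfp365, Lrig3, Esp38 and Pdia4 and in Prrt4, and except for the one near Esp38, with 2321 reads there, the knockdown 2 peaks had 16 to 78 reads and a false discovery rate of 100%.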

How the data were processed

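Sonicated chromatin of MC3T3-E1 cells was precipitated with an anti-MACF1 antibody (more than 1 lot, not assigned to libraries) and sequenced beside inputs, per the labels' protocols. The submitters' processing notes name cutadapt, Bowtie2 and the build GRCm38. MACS 1.4.2 called the peaks, per the file headers, separately in every immunoprecipitate with its matched input as background, with 1.00e-05 as the p cutoff and 1 read kept per position, so peak lists move with depth and duplicates. The deposited counts are reads per peak after duplicate removal. The deposited score is 10 times the −log10 of a peak's p-value. The deposited fold enrichment is the ratio between signal and local input background. The deposited false discovery rate is in percent, from swapping immunoprecipitate and input. Widths and summit positions, deposited in bp and classed as other values, were used as given. Scores, folds and rates were ranked or cut within each list. Lists were joined by those ranks, or by the same cutoff in each.

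Peaks were intersected in Python 3.11.15 (pandas 2.3.3, numpy 2.4.6, scipy 1.17.1). On simulated lists of 2000 peaks the step recovered 200 of 200 planted 1 bp overlaps. It called 0 others, but the layout kept all other pairs too far apart to overlap. Gene spans, promoter windows and microRNA sequences came from RefSeq tables of GRCm38.p6. Of 21887 protein-coding genes (chromosomes 1 to 19 and both sex chromosomes), 17492 (79.9%) had a promoter window, so shares at start sites count only these. The 48 shared peaks on chromosome 18 were left out of start-site values, and 1 on unplaced sequence was left out of all gene places. All 381 entries of 13 gene lists matched a gene. The members, lists, families and motifs were chosen with earlier results of these data known, so no list is independent evidence. No significance test was run, since both libraries of the rule would be its only replicates.

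Named were, by rule, the 15 genes with most shared peaks, the 10 peaks ranked best by fold enrichment over both lists, by reads and by width, 8 clusters (by members, ties by reads in knockdown size3), the smallest overlaps and nearest misses, peaks met by another library, 8 promoters and at most 5 genes of each list. A few of these are not reported here. Further genes of the Wnt and crosslinker lists, family members, microRNAs and chromosomes were named after their values were seen. Alternatives changed the overlap, the peak threshold, windows, genes and gaps, and left out each library.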

Additional observations from a re-analysis of the deposited data

How the results depend on the processing

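Of 67 alternatives over 10 results, 30 stayed within counting error or 1.5 times the count and 37 moved. An overlap of at least 50% of both peaks left 963 shared peaks, with 65.4% inside genes, 11.6% more than 50 kb away, a median of 801 bp and 22.0 reads, 828 genes and 8.20% in clusters. Summits within 500 bp left 1230, with 68.3%, 10.1%, 754 bp, 20.0 reads, 1098 genes and 10.9%. A false discovery rate of at most 5% in both lists left 1175, with 885 bp, 25.0 reads, 1101 genes and 17.3% in clusters. A score of at least 100 in both left 56, with 48.2% at gene ends, 78.6% inside genes, 3.57% beyond 50 kb, 1396 bp, 41.5 reads, 68 genes and 0.0% in clusters. The share at gene ends was 28.9% to 30.7% under the first 3 of these settings. It was 18.6% in windows of 500 bp and 37.8% in windows of 2000 bp, and 35.0% with all genes of the table, by which 77.5% lay inside genes. Gaps of at most 10 kb and 100 kb put 12.8% and 39.6% in clusters. The excess at gene ends was 15.0 points within quartiles of knockdown size3 width and 14.6 points for knockdown 1. Allowing 1 kb, 33 shared peaks met another library, and leaving out each of the 4 other libraries in turn gave 5 to 17, with 5 without control size3. Fewer peaks enter the stricter settings by construction, and otherwise the cause was not tested.

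Without knockdown 1 or knockdown size3 no peak is shared by rule. No paired analysis was possible because the results come from no test and the rule itself joins libraries with different labels. Depth limits the counts in other libraries, where a count of 0 allows up to 0.147% (3 counts of the total), and a difference of peak calls is no measure of a difference in reads.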
